A study of Mus musculus with 7 samples.

Results

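The 10 genes described here encode proteins that build, coat and empty lipid droplets, out of 23361 genes in the expression table of macrophages sorted from injured mouse sciatic nerve. The set was chosen by gene name, with earlier results of these libraries known: the rise and later fall of G0s2 had been seen in them, so its values are given as a description and without a p-value. Plin2 and Plin3 coat droplets, Agpat9, Dgat1 and Dgat2 make triglyceride, Pnpla2, Lipe and Mgll break it down, and Abhd5 and G0s2 control the first of these lipases. The RNASeq libraries came from BALB/cJ mice whose left sciatic nerve was cut and at once repaired by suturing both stumps into a conduit, an inert tube that leaves a short gap for the nerve to bridge. All 7 libraries carried this injury: 3 were made 5 days after repair, 2 at 14 days and 2 at 28 days, each called an independent biological replicate by the submitters. No uninjured nerve was among the samples analysed here, so each change below is relative to another day of repair. The genotype of all groups was wild type, with no drug other than the anesthetic and perioperative analgesic. The age of these animals, and whether several were pooled for a library, were not given in the sources used here. If several libraries came from the same pool of cells, the p-values below would measure technical spread only.

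Cells were digested from the tissue bridge and sorted by FACS as positive for F4/80, CD14, CD11b and CD16/32. The gate excluded cells carrying lineage markers of granulocytes, eosinophils, B and T lymphocytes, red cells and fibroblasts. All 8 macrophage markers examined, Lyz2, Cd68, Csf1r and Emr1 among them, were detected, and their summed level was 1.6e+04 to 2.21e+04 FPKM (fragments per kilobase of transcript and per unit of sequencing depth, a level scaled by gene length) across the libraries. The adipocyte markers Adipoq and Lep were at or under 3 fragments in every library, and the 7 adipocyte markers together summed to 0.196 to 1.33 FPKM. Libraries held 18027190 to 35247116 fragments in genes, and the day 28 replicate 1 library was the deepest. The values are of bulk RNA, in which fewer cells of a type and less RNA per cell cannot be told apart.

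A lipid droplet is a store of triglyceride and sterol ester enclosed by a single layer of phospholipid and by coat proteins of the perilipin family. Triglyceride is built by adding fatty acids to a glycerol backbone one at a time, and is taken apart in the reverse order by a chain of lipases that release a fatty acid at each step. Macrophages that take up lipid-rich debris, as phagocytes do in a cut nerve where myelin is cleared, store part of the lipid in such droplets and are then often called foam cells.

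Promoter windows of 300 bases, with 250 bases before and 50 after the annotated start, were available from RefSeq (assembly GRCm38.p6) for 8 of the 10 genes. The 4 shown belong to the genes that passed the whole-table test in at least 1 comparison of days: Mgll, the member with the largest fold change in edgeR, and G0s2, Plin2 and Agpat9, which were picked after their values were seen. They are the reference sequence of a C57BL/6J genome, not of BALB/cJ. Each is printed 5′ to 3′ on the strand of its gene, and capitals mark the letters of the motifs searched. Positions are counted from 1 at the first transcribed base, with negative values before it.
Plin2, chr4:86670010-86670309, minus strand: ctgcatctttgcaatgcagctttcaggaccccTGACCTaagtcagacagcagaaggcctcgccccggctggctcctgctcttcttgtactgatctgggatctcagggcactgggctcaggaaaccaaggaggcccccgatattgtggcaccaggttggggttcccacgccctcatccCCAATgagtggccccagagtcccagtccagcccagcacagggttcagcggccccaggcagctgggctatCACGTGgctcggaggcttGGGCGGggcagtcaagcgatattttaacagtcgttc
Agpat9 (Gpat3 in RefSeq), chr5:100845979-100846278, plus strand: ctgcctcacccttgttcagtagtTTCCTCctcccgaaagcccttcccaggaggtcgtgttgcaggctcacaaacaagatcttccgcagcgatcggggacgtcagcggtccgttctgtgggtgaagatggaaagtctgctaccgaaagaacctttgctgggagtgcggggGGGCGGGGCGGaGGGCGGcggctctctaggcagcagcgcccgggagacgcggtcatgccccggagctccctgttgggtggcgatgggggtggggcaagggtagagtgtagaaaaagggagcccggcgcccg
Mgll, chr6:88724162-88724461, plus strand: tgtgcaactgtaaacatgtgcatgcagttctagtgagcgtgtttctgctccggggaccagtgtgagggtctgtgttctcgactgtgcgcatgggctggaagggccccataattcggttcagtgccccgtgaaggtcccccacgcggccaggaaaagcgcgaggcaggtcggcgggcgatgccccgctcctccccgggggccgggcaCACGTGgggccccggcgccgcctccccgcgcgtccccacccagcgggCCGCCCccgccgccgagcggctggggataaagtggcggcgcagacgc
G0s2, chr1:193273139-193273438, minus strand: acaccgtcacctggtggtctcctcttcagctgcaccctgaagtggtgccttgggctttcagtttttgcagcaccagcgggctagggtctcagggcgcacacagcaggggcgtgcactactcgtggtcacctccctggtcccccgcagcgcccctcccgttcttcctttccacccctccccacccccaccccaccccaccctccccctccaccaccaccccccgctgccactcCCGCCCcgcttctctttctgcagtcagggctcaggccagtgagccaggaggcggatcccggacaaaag

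The motifs were searched on both strands. Lipe and Mgll have 2 annotated starts each, so the 8 genes have 10 windows. GGGCGG, the GC box, was in 9 of the 10 windows, the exception being the second of Lipe, and in 35.7% of the 32851 mouse promoters of the same length. No member window held TATAAA, which was in 13.6% of all promoters, or the AP-1 site TGANTCA, which was in 7.81%. The Plin2 window held the letters of 4 motifs. They were CCAAT (37.4% of all promoters) at position -73 from the start, GGGCGG at 15, AGGTCA, a nuclear receptor recognition element (16.3%), on the opposite strand at -218, and CACGTG at -4, which holds ACGTG (19.6%), the core of the hypoxia response element, on both strands. The first Mgll window, the one shown, also held CACGTG, at -44, beside a GC box at 4. Agpat9 held 3 GC boxes, at -81, -76 and -69, of which the first 2 share a base, and GAGGAA (28.3% of all promoters), the core of the site of the macrophage factor PU.1, on the opposite strand at -227. In the G0s2 window the GC box at -18, on the opposite strand, was the one match. A match is a description of letters and was not tested as a binding site.

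Plin2 was by far the most abundant of the 10. Averaged over the 7 libraries it stood at 793.9 FPKM, followed by Plin3 at 37.04, Pnpla2 at 33.59, G0s2 at 33.43, Abhd5 at 17.85, Dgat1 at 14.68, Agpat9 at 13.73, Dgat2 at 7.832, Lipe at 6.15 and Mgll at 0.6106. Among the 12858 genes with enough fragments to test, Plin2 ranked 59 at day 5, 124 at day 14 and 139 at day 28 by mean FPKM. Plin2 made up 85.8% to 88.2% of the summed FPKM of the 10 genes at day 5, 75.9% and 76.8% at day 14, and 78.8% and 80.1% at day 28. The sum of the other 9 was 156.5 to 160.8 FPKM at day 5, 193.5 and 198.5 at day 14, and 142.7 and 144 at day 28. In this sum the day 14 libraries were the highest and the day 28 libraries the lowest, with no overlap between days. The sum includes G0s2, chosen for its day 14 level, at 60.06 and 68.49 FPKM at day 14 and 15.78 to 25.52 on the other days. The day 14 peak of the sum is therefore not a trait of the remaining genes. In the order of mean levels from Plin3 to Lipe, the range of each gene over the libraries overlapped that of the next. Plin2 and Mgll were separated from all the others in every library.

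**Figure D1:**
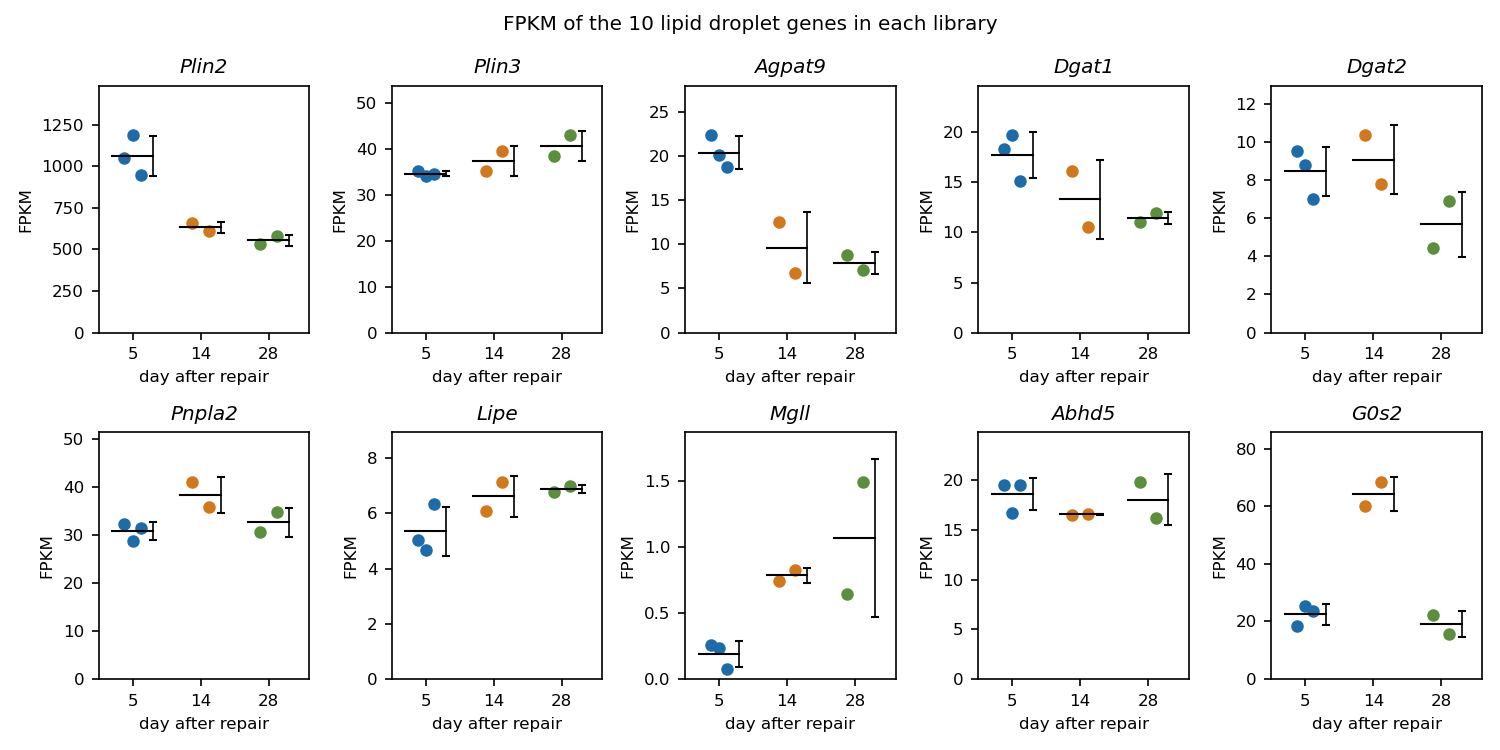
FPKM (vertical axis, from 0, with its own scale in each panel) of each of the 10 genes at 5, 14 and 28 days after repair. Each point is 1 library, lines are means and bars are SDs (n = 3 at day 5, n = 2 at days 14 and 28); the 2 day 14 points of G0s2, at 60.06 and 68.49, lie above all others, while Plin2 is highest at day 5.

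In the fit over all genes, 4 of the 10 changed in at least 1 of the 3 comparisons of days and 6 in none. A gene was called at a Benjamini-Hochberg adjusted p under 0.05 in edgeR's quasi-likelihood test. Between day 5 and day 14, G0s2 rose, and Plin2 and Agpat9 fell. This is 3 of 10 members, including G0s2, which was chosen for this pattern, where 4.78% of all tested genes were called, 2.84% as higher and 1.94% as lower at day 14. By the stricter rule of the study's methods, which adds a fold change of at least 2 and a mean of at least 5 FPKM on 1 of the days, 2 members passed, G0s2 and Agpat9, beside 1.17% of all tested genes. The count of 3 became 1 without any 1 of the day 5 libraries or without day 14 replicate 2, and 5 without day 14 replicate 1. Between day 14 and day 28 only G0s2 passed, lower at day 28, again the pattern it was chosen for. In that comparison 0.0622% of all genes were called, 0.0311% in each direction, and 0.0467% by the stricter rule, which G0s2 also passed. Between day 5 and day 28 Plin2 and Agpat9 were lower and Mgll higher, against a background of 15.2% of all genes called, 7.74% as higher and 7.51% as lower. By the stricter rule only Agpat9 passed, beside 3.52% of all genes. Without day 28 replicate 2 the count of 3 became 1, with Plin2 alone. The median log2 fold change of the members was 0.11, -0.20 and -0.12 in these comparisons, in that order, and of all tested genes 0.03, 0.01 and 0.03. The comparisons share libraries, and the genes were listed with results of the same libraries known, so the counts describe the fit and are no independent support for a change in lipid storage.

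**Figure D2:**
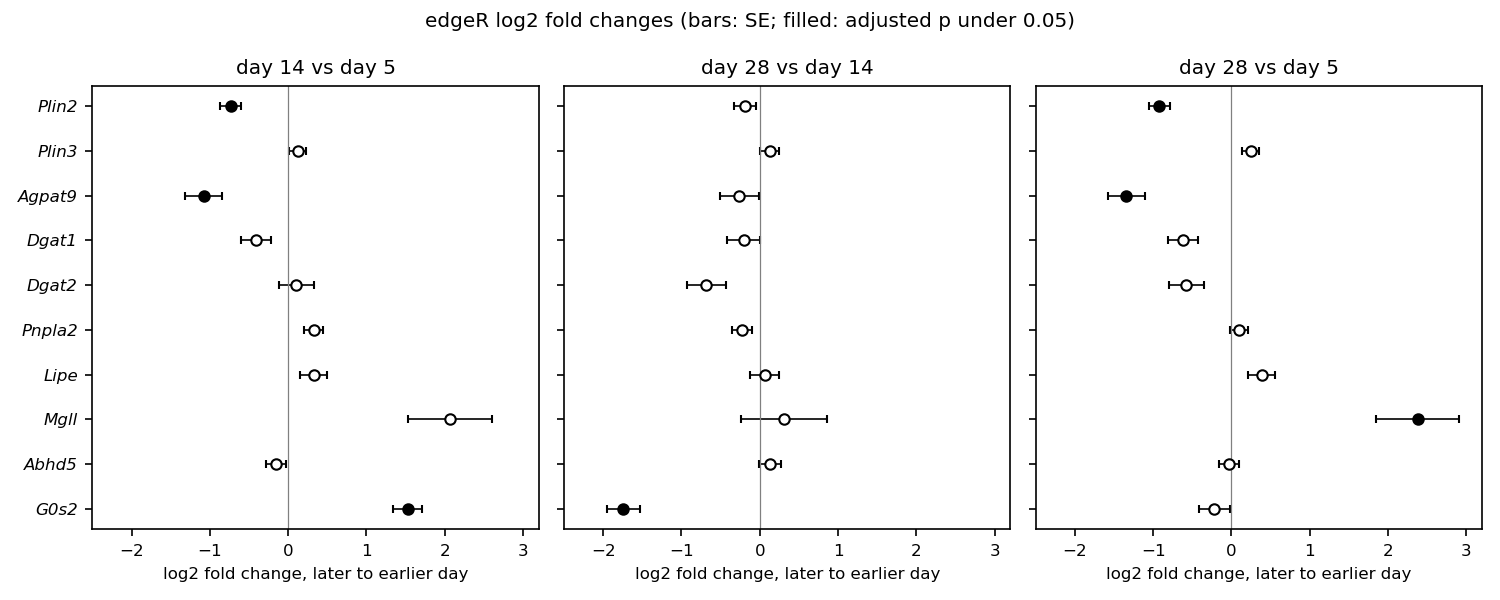
edgeR log2 fold change of each gene (horizontal axis, later to earlier day) in the 3 comparisons of days, with bars of 1 SE; filled points passed an adjusted p under 0.05 over all 12858 genes. The filled points are G0s2, Plin2 and Agpat9 in day 14 vs day 5, G0s2 alone in day 28 vs day 14, and Plin2, Agpat9 and Mgll in day 28 vs day 5.

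Plin2 (ENSMUSG00000028494; mm10 chr4:86648386-86670060, minus strand) is the perilipin that coats droplets in most cell types other than fat cells, and its protein is degraded when it is not bound to a droplet. It stood at 1049, 946 and 1187 FPKM at day 5, at 656.5 and 610.8 at day 14, and at 530.1 and 578.9 at day 28. Every day 5 library was above every later one, and every day 14 library was above both day 28 libraries. The mean fell from 1060 ± 120.7 FPKM (SD, n = 3) to 633.6 ± 32.27 (SD, n = 2) by day 14. This is a log2 fold change of -0.73 (SE 0.14), or 1.66-fold lower, with an adjusted p of 0.0231 in edgeR. The call was lost without any 1 of the day 5 libraries (adjusted p 0.0603 to 0.0878) or without day 14 replicate 2 (0.0611), with log2 fold changes from -0.81 to -0.64 over all libraries left out. From day 5 to day 28 it was 1.89-fold lower, with a log2 fold change of -0.92 (SE 0.14) and an edgeR adjusted p of 0.00378, and it passed under all 15 alternatives run. The step from day 14 to day 28, to 554.5 ± 34.51 FPKM (SD, n = 2), was -0.19 (SE 0.14) on the log2 scale and did not pass (edgeR adjusted p 0.641). The genes whose level across the 7 libraries was most like that of Plin2 were Ghdc, Kdm4b, Actg1, Npy and Elk3, with Pearson correlations of log2(FPKM + 1) from 0.984 to 0.988 among 7556 genes. These correlations describe 7 libraries on 3 days.

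Plin3 (ENSMUSG00000024197; chr17:56277476-56292873, minus strand), a perilipin that moves between the cytosol and newly formed droplets, differed little between days. It stood at 35.02, 34.53 and 33.95 FPKM at day 5, 35.04 and 39.56 at day 14 and 38.32 and 42.87 at day 28. Both day 28 libraries were above all day 5 libraries, but the log2 fold change of 0.25 (SE 0.11) had an edgeR adjusted p of 0.152. The ratio of Plin2 to Plin3 FPKM was 29.9, 27.4 and 35 at day 5, 18.7 and 15.4 at day 14 and 13.8 and 13.5 at day 28. Transcript of the 2 coat proteins thus stood in a proportion of 30.8 ± 3.84 (SD, n = 3) at day 5 and 13.7 ± 0.232 (SD, n = 2) at day 28, and no 2 days overlapped.

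Of the synthesis enzymes, Agpat9, named Gpat3 in current annotation (ENSMUSG00000029314; chr5:100845713-100899102, plus strand), adds the first fatty acid to glycerol 3-phosphate. Its level was 22.31, 18.68 and 20.08 FPKM at day 5, 12.45 and 6.774 at day 14, and 8.805 and 7.045 at day 28. All day 5 libraries were above all later ones. The 2 day 14 libraries lay far apart, on both sides of the day 28 values. The mean fell from 20.36 ± 1.835 FPKM (SD, n = 3) to 9.61 ± 4.011 (SD, n = 2) at day 14, 2.11-fold, with a log2 fold change of -1.08 (SE 0.23) and an edgeR adjusted p of 0.0366. That call held in 5 of 15 alternatives, among them the fit without day 14 replicate 1 (log2 fold change -1.57), and it was lost without any other 1 library (adjusted p 0.0571 to 0.115). At day 28, at 7.925 ± 1.244 FPKM (SD, n = 2), it was 2.54-fold lower than at day 5 (log2 fold change -1.34, SE 0.23, edgeR adjusted p 0.00716), which was lost only without day 28 replicate 2 (-1.20, adjusted p 0.0585). Exons of Agpat9 overlap those of 4930458D05Rik, on the other strand, and Gm42987. The use of strand in counting was not given in the sources used here, so reads of 4930458D05Rik cannot be told apart from those of Agpat9. Gm42987 lies on the same strand as Agpat9, so strand could not separate their reads in any case.

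Dgat1 and Dgat2 are the unrelated enzymes that add the last fatty acid to make triglyceride. Dgat1 (ENSMUSG00000022555; chr15:76502015-76511953, minus strand) stood at 18.30, 15.16 and 19.70 FPKM at day 5, 16.10 and 10.52 at day 14 and 11.05 and 11.90 at day 28. Both day 28 libraries were below all day 5 libraries, by a log2 fold change of -0.61 (SE 0.19) that just missed the threshold (edgeR adjusted p 0.0598) and passed in 5 of 15 alternatives, DESeq2 (0.0271) among them. Dgat2 (ENSMUSG00000030747; chr7:99153658-99182719, minus strand) was at 9.529, 7.013 and 8.813 FPKM at day 5, 10.35 and 7.778 at day 14 and 4.454 and 6.892 at day 28. Its day 28 libraries were below all others, with log2 fold changes of -0.58 (SE 0.23) from day 5 and -0.68 (SE 0.25) from day 14, neither of which passed (edgeR adjusted p 0.119 and 0.315). The ratio of Dgat1 to Dgat2 FPKM was 1.92, 2.16 and 2.24 at day 5, 1.56 and 1.35 at day 14 and 2.48 and 1.73 at day 28. Dgat1 was the higher of the pair in all 7 libraries, by least at day 14.

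Pnpla2 (ENSMUSG00000025509; chr7:141455198-141460743, plus strand) encodes ATGL, the lipase that takes the first fatty acid from triglyceride. It stood at 32.44, 31.54 and 28.77 FPKM at day 5, 41.15 and 35.83 at day 14 and 30.60 and 34.80 at day 28. The day 14 libraries were the highest, but the log2 fold changes of 0.32 (SE 0.12) from day 5 to day 14 and -0.23 (SE 0.13) from day 14 to day 28 did not pass (edgeR adjusted p 0.13 and 0.497). Lipe (ENSMUSG00000003123; chr7:25379527-25398710, minus strand) encodes hormone-sensitive lipase, which acts mainly on diacylglycerol and on sterol esters. Its values were 5.033, 6.353 and 4.661 FPKM at day 5, 6.091 and 7.142 at day 14, and 6.779 and 6.989 at day 28. Both day 28 libraries were above all day 5 libraries, by 0.39 (SE 0.17) on the log2 scale, which did not pass (edgeR adjusted p 0.156). Its exons overlap the antisense gene 4732471J01Rik, which held 15 to 25 fragments a library.

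Mgll (ENSMUSG00000033174; chr6:88724412-88828360, plus strand), the monoacylglycerol lipase that completes the breakdown, was near the bottom of the tested range and had the largest edgeR fold change of the set. It stood at 0.258, 0.0727 and 0.2363 FPKM at day 5, 0.7444 and 0.8271 at day 14 and 0.6427 and 1.493 at day 28. The fragments behind these values were 21, 5 and 18 at day 5, 46 and 65 at day 14, and 86 and 88 at day 28. All day 5 libraries were below all later ones, and the day 28 pair was spread widely, at 1.068 ± 0.6013 FPKM (SD, n = 2). It was 5.19-fold higher at day 28 than at day 5, with a log2 fold change of 2.38 (SE 0.53) and an edgeR adjusted p of 0.0186. Without day 28 replicate 2 the log2 fold change was 1.78 and the call was lost (adjusted p 0.111). On the log2(FPKM + 1) scale, which understates the change of so low a gene, the difference was 0.77 in limma, smaller than that of Agpat9 (-1.26). Day 14 was 4.2-fold above day 5 (log2 fold change 2.07, SE 0.53) but missed the threshold in edgeR, at an adjusted p of 0.0567, and passed in DESeq2 (0.00566). Among the members, Mgll was the lowest of the lipases in every library. Its ratio to Lipe FPKM was 0.0114 to 0.0513 at day 5 and 0.0948 and 0.214 at day 28. Its exons overlap the antisense gene Gm26588.

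Abhd5 (ENSMUSG00000032540; chr9:122351608-122381524, plus strand) encodes CGI-58, the protein that activates ATGL and is held at the droplet by perilipins. It was at 19.51, 19.55 and 16.72 FPKM at day 5, 16.53 and 16.61 at day 14 and 19.83 and 16.21 at day 28, with a log2 fold change no larger than 0.16 in either direction. The day 14 libraries lay just under those of day 5, and day 28 overlapped both. None of its 3 comparisons passed (edgeR adjusted p 0.492 to 0.901). Its exons overlap A730085K08Rik on the other strand, which held 0 to 5 fragments a library.

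G0s2 (ENSMUSG00000009633; chr1:193272161-193273217, minus strand, 1057 bases) encodes a small protein that binds ATGL and inhibits it. It was at 18.35, 23.61 and 25.52 FPKM at day 5, 60.06 and 68.49 at day 14 and 22.20 and 15.78 at day 28. Both day 14 libraries were above all others, and the day 5 and day 28 libraries overlapped. The mean went from 22.49 ± 3.711 FPKM (SD, n = 3) to 64.27 ± 5.957 (SD, n = 2) and back to 18.99 ± 4.542 (SD, n = 2). This was 2.88-fold higher at day 14 than at day 5 (log2 fold change 1.53, SE 0.19) and then 3.35-fold lower at day 28 than at day 14 (-1.74, SE 0.21). Both steps were under the all-gene threshold, but these are the values that led to the choice of the gene, so the threshold is no test of them. With each library left out in turn the first step was 1.40 to 1.64 and the second -2.03 to -1.54 on the log2 scale. The second was no longer under the threshold without any 1 of the day 5 or day 28 libraries, with limma on FPKM, or with day 5 left out of the fit altogether. Days 5 and 28 did not differ at the threshold (log2 fold change -0.22, SE 0.20). By mean FPKM G0s2 ranked 3407 of the tested genes at day 5, 1260 at day 14 and 3702 at day 28.

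G0s2 is abundant in neutrophils as well as in macrophages and fat cells, and several neutrophil markers moved with it. The 10 markers, of which Elane was at or under 3 fragments in every library, summed to 333 to 356 FPKM at day 5, 585 to 599 at day 14 and 153 to 293 at day 28. S100a9 stood at 138, 161 and 159 FPKM at day 5, 334 and 295 at day 14 and 137 and 61.4 at day 28. S100a8 was at 101, 105 and 116 at day 5, 161 and 218 at day 14 and 115 and 41.6 at day 28. For both, as for Cxcr2, at 5.31 and 6.5 FPKM at day 14 and 1.7 to 4.43 on the other days, the day 14 libraries were the highest. Csf3r, the receptor for the neutrophil growth factor G-CSF, did not share this order, at 72.7, 66.6 and 67.1 FPKM at day 5, 70.5 and 45.1 at day 14 and 30.2 and 34 at day 28. Retnlg overlapped between days 5 and 14, at 18.6, 8.24 and 9.98 FPKM and at 28 and 17.7, and was at 8.84 and 14.2 at day 28. Its correlation with G0s2 over the libraries was 0.550. Of the 6 markers tested, 5 had a positive log2 fold change from day 5 to day 14 (median over the 6, 0.86) and all 6 a negative one from day 14 to day 28 (median -1.43), none of them called in edgeR (the adjusted p of S100a9 was 0.0515 and 0.0774). At an unadjusted p under 0.05 edgeR had 5 and 6 of the 6, beside 3083 and 1570 of all 12858 tested genes. DESeq2 called 1 and 4 of the 6, with no count over all genes given here. The part of neutrophil RNA in the G0s2 result was not tested.

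**Figure D3:**
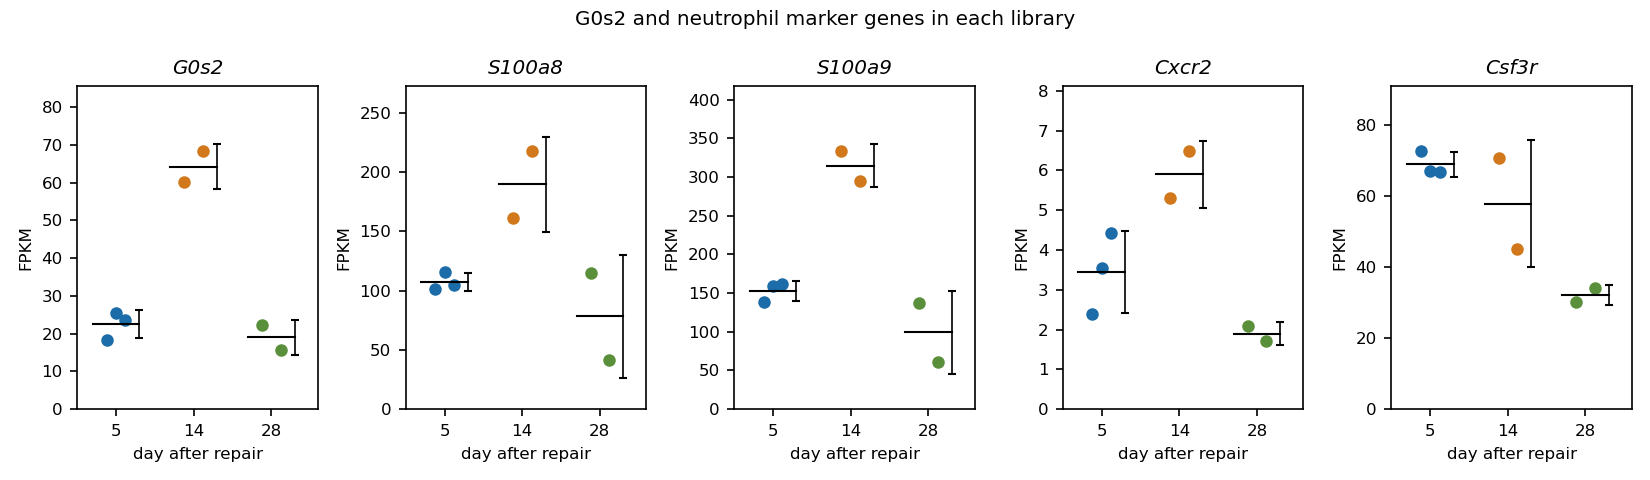
FPKM (vertical axis, from 0) of G0s2 and of the neutrophil markers S100a8, S100a9, Cxcr2 and Csf3r at 5, 14 and 28 days after repair, with 1 point per library, means as lines and SDs as bars. G0s2, S100a8, S100a9 and Cxcr2 are highest in both day 14 libraries; Csf3r is not, at 70.5 and 45.1 FPKM there.

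Markers of fibroblasts were also highest at day 14, summing to 27.8 to 72.1 FPKM at day 5, 80.2 and 222 at day 14 and 34.9 and 56.1 at day 28. All 6 were detected and tested, and all had a higher mean at day 14 than at day 5. In edgeR 6 had an unadjusted p under 0.05 in that step and 1, Col1a2, was called (log2 fold change 1.86, adjusted p 0.035). Over all 12858 tested genes these counts were 3083 and 614. The fibroblast markers differed widely between the day 14 libraries, with Col1a1 at 82.4 and 29.9 FPKM. The T cell list summed to 8.31 to 13.8 FPKM at day 14 against 2.55 to 7.06 on the other days, but this sum is nearly all Cd4. Cd4 was called higher at day 14 than at day 5 (1.83, edgeR adjusted p 0.0157). Cd3e, Cd3d, Cd3g and Cd8a held at most 10 fragments in any library and were not tested. Endothelial markers summed to 14.9 to 26.5 FPKM at day 5, 7.33 to 13.9 at day 14 and 4.11 to 7.54 at day 28. That sum is mostly Kdr and Pecam1, both lower at day 28 than at day 5 (edgeR adjusted p 0.0029 and 0.0145), while Tek, at 0 to 2 fragments at day 5 and 9 and 46 at day 28, was called higher (0.0208), and Egfl7 and Cdh5 had log2 fold changes of 1.66 and -0.09 that did not pass. The Schwann cell list, mostly Pmp22, summed to 242 to 294, 159 to 280 and 153 to 156 FPKM on these days. Pmp22 fell from day 5 to day 28 (log2 fold change -0.92, edgeR adjusted p 0.0314), while Mbp rose from 11 to 18.36 FPKM (0.75, 0.0296) and Prx, at 0.18, did not pass. Skeletal muscle markers summed to at most 1.39 FPKM in any library. The part of these cells in the changes of G0s2, Plin2, Agpat9 and Mgll was not tested.

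The 5 genes whose level was most like that of G0s2 over the 7 libraries were Pbx2, Commd5, Zfp771, Stfa2l1 and Hdc, with Pearson correlations of log2(FPKM + 1) of 0.943 to 0.959 among 7556 genes. Pbx2, Commd5 and Zfp771 moved over a narrow range, Pbx2 from 20.8 to 24.5 FPKM. Stfa2l1 and Hdc moved as widely as G0s2: Hdc, the enzyme that makes histamine, stood at 15.7, 20.6 and 20 FPKM at day 5, 41.8 and 34.9 at day 14 and 16.7 and 9.33 at day 28. S100a9 was 17th in this order, at a correlation of 0.910, and S100a8 64th, at 0.842. Plin2, at -0.257, did not share the pattern of G0s2. The points share days, and the values are a description of 7 libraries.

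Set against its target, G0s2 went from the lower to the higher of the pair and back. The ratio of G0s2 to Pnpla2 FPKM was 0.566, 0.749 and 0.887 at day 5, 1.46 and 1.91 at day 14 and 0.726 and 0.453 at day 28. Its means were 0.734 ± 0.161 (SD, n = 3), 1.69 ± 0.32 (SD, n = 2) and 0.589 ± 0.192 (SD, n = 2). The transcript of G0s2 thus exceeded that of the lipase in both day 14 libraries and in no other. This does not hold for inhibitors of ATGL in general. Hilpda, another of them described below, was above Pnpla2 in every library, at 288.1 to 746.7 FPKM against 28.77 to 41.15. Against the activator Abhd5, G0s2 stood at ratios of 0.941, 1.21 and 1.53 at day 5, 3.63 and 4.12 at day 14 and 1.12 and 0.973 at day 28. The ratio of activator to lipase, Abhd5 to Pnpla2, was 0.581 to 0.62 at day 5, 0.402 and 0.464 at day 14 and 0.648 and 0.466 at day 28, and its day 14 libraries were the lowest. These are ratios of transcript levels per length; protein was not measured, and no test was made because G0s2 was known to change.

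**Figure D4:**
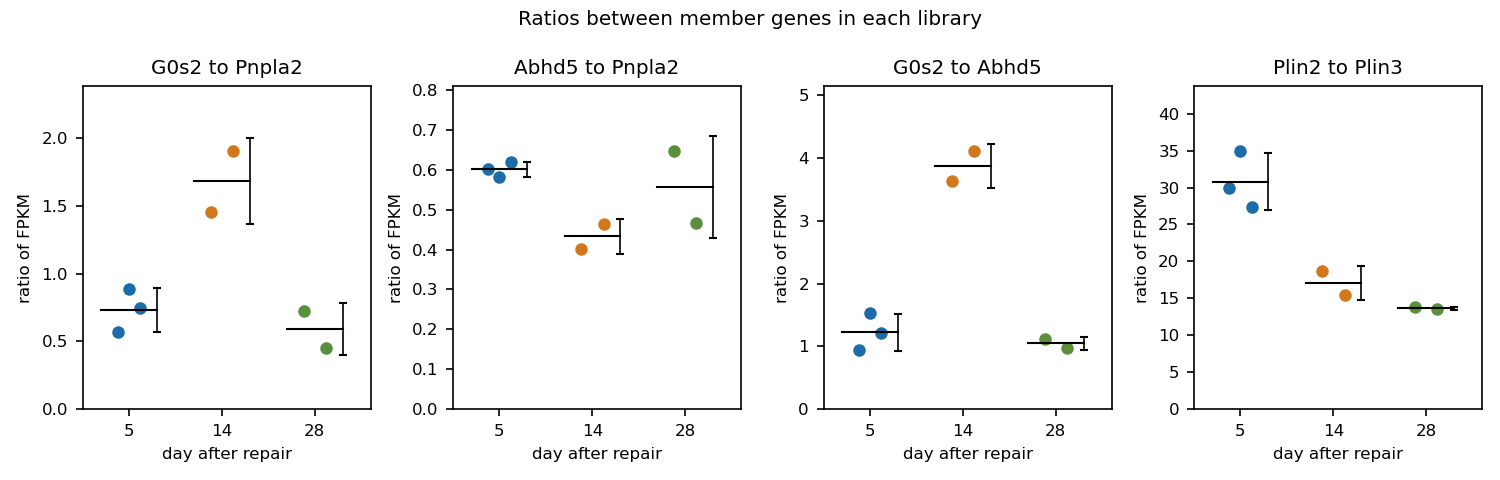
Ratios of FPKM between members (vertical axis, from 0) in each library at 5, 14 and 28 days after repair, with 1 point per library, means as lines and SDs as bars. G0s2 to Pnpla2 is above 1 only in the day 14 libraries (1.46 and 1.91), and Plin2 to Plin3 is highest at day 5 (27.4 to 35).

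Around the members, 73 other genes of lipid storage were grouped by function in 5 lists: droplet coat and assembly, glycerolipid synthesis, other lipases and sterol esters, fatty acid uptake and oxidation, and regulators. Of these 57 had enough fragments to test, and 12 were called in at least 1 comparison. From day 5 to day 14, 2 were called, 1 higher (Acsl3) and 1 lower (Hilpda), with a median log2 fold change of -0.01, where 4.78% of all tested genes were called. This count became 0 without day 5 replicate 3, 11 without day 14 replicate 1 and 1 without any other 1 library. From day 14 to day 28 none was called in edgeR. Of the 57, 9 had an unadjusted p under 0.05, beside 1570 of all 12858 tested genes. DESeq2 called 1 and limma on log2(FPKM + 1) 0. From day 5 to day 28, 12 were called, 6 in each direction, 3 of them by the stricter rule, with a median of -0.05, where 15.2% of all tested genes were called. The list counts below, of 1 to 3 genes each, are to be read against the same 15.2%. Without 1 library at a time this count went from 4, without day 5 replicate 1 or day 28 replicate 1, to 19, without either day 14 library; it was 7 without day 5 replicate 2 and 5 without day 5 replicate 3 or day 28 replicate 2.

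On the list of coat and assembly genes, 9 of 16 were tested and 1 was called. Hilpda, a droplet protein that is induced by hypoxia and, like G0s2, inhibits ATGL, was the most abundant of the list. It stood at 746.7, 542.1 and 589.6 FPKM at day 5, 355.8 and 288.1 at day 14 and 307.7 and 307.9 at day 28, so all day 5 libraries were above all later ones. It fell 1.93-fold by day 14 (log2 fold change -0.95, SE 0.16, edgeR adjusted p 0.0205) and was 2.01-fold lower at day 28 than at day 5 (-1.01, SE 0.16, 0.00546). The inhibitors of ATGL thus moved in opposite directions between day 5 and day 14. Its correlation with Plin2 over the 7 libraries was 0.942, and with G0s2 -0.407. On this list 8 genes were under 1 FPKM on average, with Cidea listed at 0.

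Of 18 glycerolipid synthesis genes, 14 were tested and 3 were called from day 5 to day 28. Acsl3, which activates fatty acids at forming droplets, rose from 5.076 to 8.992 FPKM by day 14 (log2 fold change 0.80, SE 0.19, edgeR adjusted p 0.0481) and was 2.34-fold higher at day 28 than at day 5 (adjusted p 0.00464). Lpin1, the phosphatase that makes diacylglycerol, rose from 1.258 to 2.779 FPKM by day 28 (log2 fold change 1.14, edgeR adjusted p 0.0352). Agpat1, which adds the second fatty acid, fell from 42.7 to 32.09 FPKM (-0.39, 0.0349). The most abundant gene of the list was Agpat4, at 43.6 FPKM on average, and Mogat2 was listed at 0.

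Of 13 other lipases and sterol ester genes, 9 were tested and 2 were called, both higher at day 28 than at day 5. Lpl, the secreted lipase that frees fatty acids from lipoproteins, stood at 52.63, 130.2 and 91.36 FPKM at day 5, 133.9 and 356.3 at day 14 and 686.7 and 546.8 at day 28. No 2 days overlapped. It was 6.82-fold higher at day 28 than at day 5 (log2 fold change 2.77, SE 0.42, edgeR adjusted p 0.00446), the largest fold among the lipid genes called. Lipa, the lysosomal acid lipase that digests lipid taken up by the cell, rose from 219.5 ± 6.986 (SD, n = 3) to 387.5 ± 84.08 FPKM (SD, n = 2) in that time (0.83, adjusted p 0.0171 in edgeR). Lipa was the most abundant of the list, above Pnpla2 in every library, and Pnpla5 was listed at 0.

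All 15 genes of fatty acid uptake and oxidation were tested, and 3 fell between day 5 and day 28. The fatty acid carriers Fabp3 and Fabp5 fell from 39.5 to 20.17 FPKM (log2 fold change -0.97, edgeR adjusted p 0.0206) and from 714.3 to 470.3 FPKM (-0.59, 0.0445), and the transporter Slc27a4 from 10.89 to 8.255 FPKM (-0.39, 0.0488). Fabp5 was the highest of this list and Cpt2 the lowest, at 3.85 FPKM on average. The scavenger receptor Cd36, with a mean of 307.5 FPKM at day 5 and 563.1 at day 28, did not pass (log2 fold change 0.88, edgeR adjusted p 0.0512).

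Of 11 regulators, 10 were tested and 3 were called from day 5 to day 28. Nr1h3, the sterol sensor LXR alpha, fell from 37.28 to 20.57 FPKM (log2 fold change -0.85, edgeR adjusted p 0.00731). Tfeb, which drives lysosomal genes, rose from 15.91 to 26.86 FPKM (0.77, 0.0155), and Cebpa from 94.71 to 140.2 FPKM (0.58, 0.0426). Cebpb was the most abundant of the list and Ppara the lowest, at 0.00299 FPKM on average. Pparg, which induces Plin2 and G0s2 in fat cells, was at 15.31, 12.32 and 17.63 FPKM on average on the 3 days, and its log2 fold change of 0.22 from day 5 to day 28 did not pass (edgeR adjusted p 0.397).

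**Figure D5:**
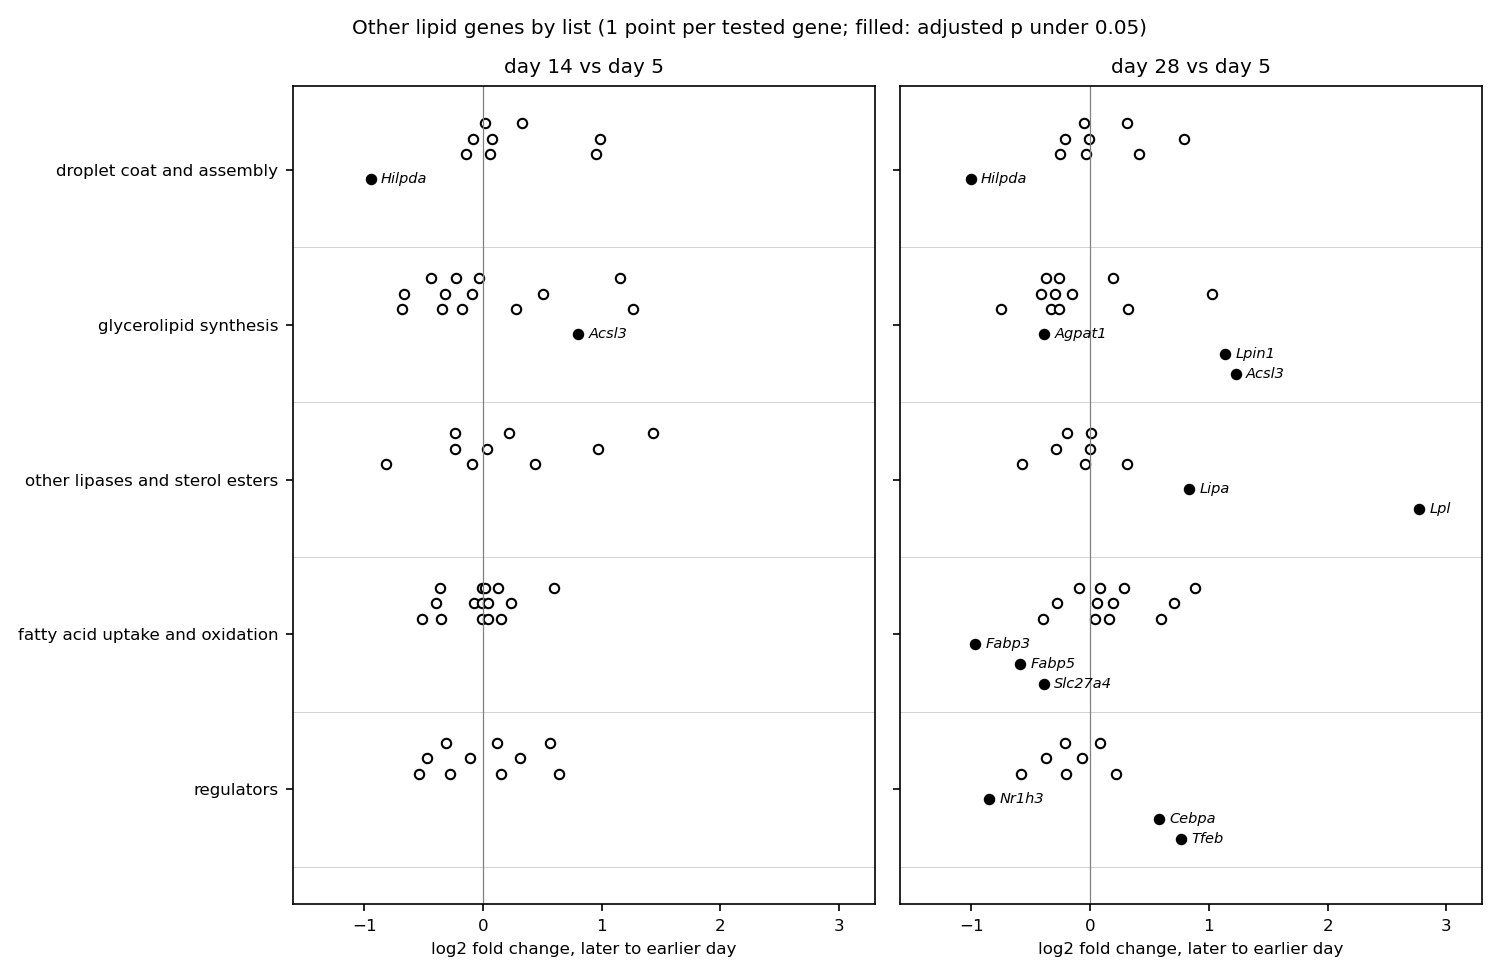
edgeR log2 fold change (horizontal axis, later to earlier day) of the 57 tested genes of the 5 other lipid lists (rows), with 1 point per gene; filled, named points passed an adjusted p under 0.05 over all genes. From day 5 to day 14 the filled points are Hilpda and Acsl3, and from day 5 to day 28 there are 12, with Lpl farthest to the right at 2.77.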

How the data were processed

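Poly(A)+ RNASeq of 7 libraries was analysed. The authors trimmed single-end reads with cutadapt 1.8, aligned them to mm10 with TopHat2 2.0.13 and quantified genes with Cuffdiff 2.2.1. The deposited table holds, per gene and library, expected counts of fragments (0.947% of them not whole), a signal scaled between libraries, and FPKM. Duplicate alignments and the use of strand were not described in the sources used here.

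Expected counts were rounded and tested with edgeR 4.0.16 (quasi-likelihood F test, TMM, filterByExpr, 12858 genes kept, time point as the only term, all 7 libraries in 1 fit, Benjamini-Hochberg over all genes kept), in place of cuffdiff, which needs the alignments. The SE is the log2 fold change divided by the square root of F, and is approximate. The test was checked on simulated data, with larger changes than those of Plin2 and Agpat9 and in genes with more fragments than Mgll. That check does not cover changes or fragment counts as small as theirs. A called gene has an adjusted p under 0.05. The study's stringent cutoff (mean FPKM of 5, 2-fold) was applied to these calls. Alternatives were DESeq2 1.42.0, limma 3.58.1 on log2(FPKM + 1) and log2(FPKM + 0.1), RLE and Cuffdiff scaling, no filter, only the 2 days compared, a replicate block, and leaving out each library; for the other lipid genes the last was chosen after seeing the data. The labels give no batch. Deposited FPKM is per length and compares genes; floors of 3 fragments cover counting error only.

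The members and lists were chosen with earlier results of these data known. Genes named were all members, called genes of the other lists (up to 6 a list, lowest adjusted p first), the highest and lowest of each list, and the 5 genes most like G0s2 and Plin2; Cd36, Pparg, and the single markers were named after their values were seen. Coordinates are from GENCODE M21 (GRCm38, the mm10 assembly). Protein sequences were not used here.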

Additional observations from a re-analysis of the deposited data

How the results depend on the processing

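Over 30 fold changes (10 members, 3 comparisons) and 15 alternatives, 402 of 450 values kept their direction and their side of the threshold, 28 lost a call, 9 gained one and 11 changed sign. The 11 belonged to changes that were not called, and each came from leaving out 1 library: the ranges with a library left out were -0.11 to 0.30 for Dgat2 from day 5 to day 14; -0.64 to 0.23 for Agpat9, -0.48 to 0.12 for Dgat1, -0.04 to 0.17 for Lipe, -0.29 to 0.74 for Mgll and -0.03 to 0.26 for Abhd5 from day 14 to day 28; and -0.01 to 0.18 for Pnpla2 and -0.19 to 0.10 for Abhd5 from day 5 to day 28. Members called from day 5 to day 14 (3) went to 1 at an adjusted p under 0.01 and ranged from 1 to 5 with a library left out. Members called from day 14 to day 28 (1) went to 0 with limma on log2(FPKM + 1) and on log2(FPKM + 0.1), with only the 2 days compared and at an adjusted p under 0.01, and ranged from 0 to 1 with a library left out. Those from day 5 to day 28 (3) went to 1 by the stringent cutoff and ranged from 1 to 4. The other lipid genes called from day 5 to day 14 (2) numbered 7 with DESeq2, 9 without the filter, and 1 with RLE, with Cuffdiff scaling, with limma at either pseudocount and with only the 2 days compared, and ranged from 0 to 11 with a library left out. From day 14 to day 28 (0 in edgeR, where 1570 of all genes had an unadjusted p under 0.05) they numbered 1 with DESeq2 and 2 without the filter, and ranged from 0 to 2. From day 5 to day 28 (12) they numbered 19 with DESeq2 and 19 with only the 2 days compared, and ranged from 4 to 19. The cause of these changes was not tested, other than that leaving out libraries leaves fewer of them. The log2 ratio of G0s2 to Pnpla2 kept its sign on each day.

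Days share replicate numbers in the labels. The deviations of same-numbered libraries from the day means were correlated over 7613 genes. The correlations were 0.175 and 0.0449 for days 5 and 14, -0.0538 for days 14 and 28, and 0.0842 and 0.0249 for days 5 and 28. At days 14 and 28, with 2 libraries each, the deviations within a day mirror each other, so that pair gives 1 value. These few values cannot settle whether equal numbers mark paired libraries. With the replicate block the members called were 0, 0 and 2 from day 5 to 14, 14 to 28 and 5 to 28, and the other lipid genes 0, 0 and 6. Depth limits Mgll most, with 5 fragments in its lowest library.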
